A study of Mus musculus with 6 samples.

Results

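Transcripts of neutrophils were examined in B16F10 melanomas grown at a weight-bearing and at a less loaded body site. The genes are S100a8, S100a9, Csf3r, Cxcr2, Lcn2, Retnlg, Ngp, Ltf and Trem1, taken by symbol from the deposited table, 9 of its 45777 genes. All 9 passed the filter on low counts and are among the 17210 genes tested. B16F10, a mouse melanoma cell line, was implanted in the hind footpad (3 tumors) or in the flank skin (3 tumors), and total RNA of each tumor was sequenced as 1 library. Per the labels, the hosts of both groups were Foxn1-/- mice aged 8 weeks, whereas the study grew these cells in C57BL/6J mice and in some experiments in nude mice, and its methods do not name the host of the sequenced tumors. Nude mice, which lack Foxn1, have no working thymus and few mature T cells but keep neutrophils and other myeloid cells. The methods speak of isolated tumor cells and name no step that removed host cells. The study counts the replicates of these tumors as mice and describes injecting the cells at several sites of a mouse at the same time, so that a mouse may have carried a tumor at both sites. Which footpad and flank tumors shared a mouse is not given in the labels. In bulk RNA, fewer neutrophils and less RNA per neutrophil cannot be told apart.

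Neutrophils are short-lived phagocytes that are made in the bone marrow under the cytokine G-CSF and enter tissue along gradients of CXC chemokines. Their granule proteins are transcribed in order as precursors mature: azurophil proteins such as myeloperoxidase first, specific granule proteins such as lactoferrin (Ltf) and neutrophilic granule protein (Ngp) next, and gelatinases last. Circulating cells have shut down most early granule genes and carry abundant mRNA for the alarmins S100a8 and S100a9 and for surface receptors such as CXCR2.

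Levels are in CPM, read counts scaled to a common library size with TMM factors, and values of a site are listed in the order of replicates 1, 2 and 3. The libraries held between 46529649 and 66364366 reads on genes, and 3 reads, taken as the limit of detection, stood for 0.0438 to 0.0673 CPM. Ly6g, a defining neutrophil marker, had 12, 0 and 5 reads in the footpad and 3, 0 and 0 in the flank tumors, too few to be tested, and how reads shared with its Ly6 relatives were counted is not given in the sources used here. Footpad replicate 2 stood apart in another cell type: its 10 keratinocyte markers summed to 470 CPM, against 1.52 to 27.8 CPM in the other 5 tumors. The fitted differences of the 9 genes are therefore given with and without it. It was also the footpad tumor with the lowest level of 9 of the 9 genes, so leaving it out raised their fitted differences.

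The neutrophil genes were abundant in 2 of the 3 footpad tumors and scarce in the third. Their summed level was 362, 6.96 and 177 CPM in the footpad, and 24.0, 32.0 and 4.36 CPM in the flank skin. Footpad replicate 1 was the highest of the 6 tumors for 9 of the 9 genes, a position it held in 23.1% of all genes tested. Replicates 1 and 3 of the footpad lay above every flank tumor for 9 of 9, as in 25.1% of all genes. With footpad replicate 2 included, the sites overlapped for each of the 9, whereas 17.5% of all genes tested had every footpad tumor above every flank tumor. Footpad replicate 2 was below both flank replicates 1 and 2 for 8 of 9 genes, the exception being Csf3r. Among flank tumors replicate 3 was lowest for 9 of 9.

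**Figure D1:**
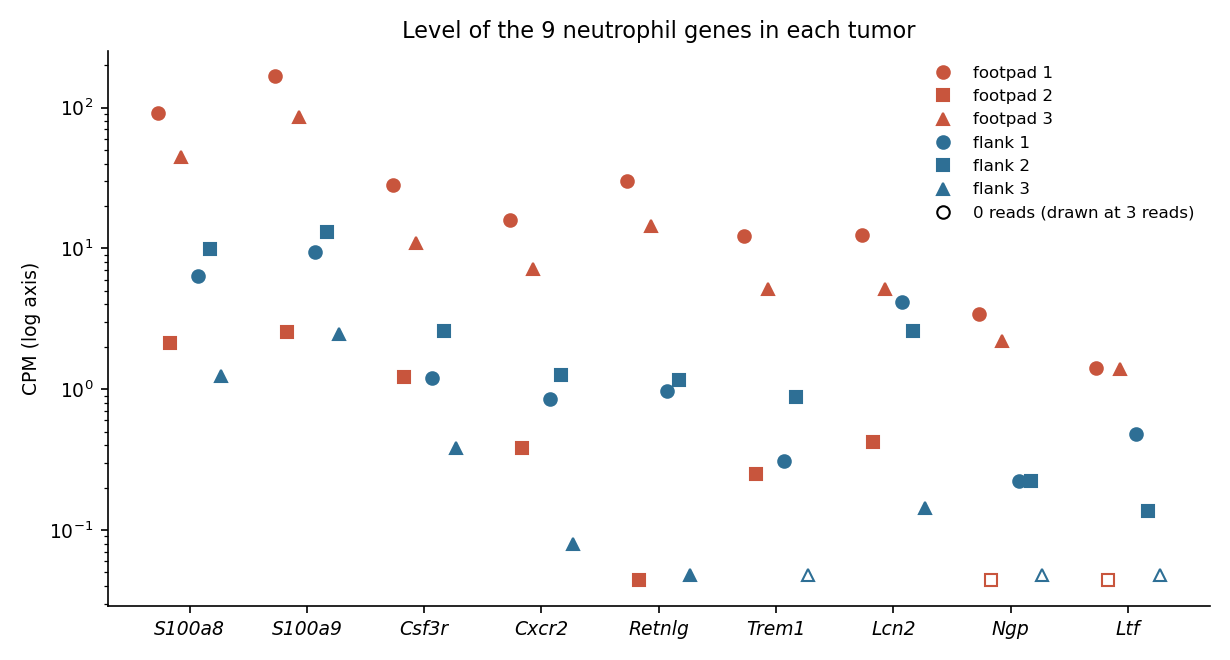
CPM of each of the 9 genes (log axis) in the 3 footpad tumors (red) and the 3 flank skin tumors (blue), with the marker shape giving the replicate and open markers standing for 0 reads, drawn at the level of 3 reads. Footpad replicates 1 and 3 lie above the flank tumors for every gene, and footpad replicate 2 lies within or below the flank range.

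No neutrophil gene passed the test between the sites. A gene was called when edgeR's quasi-likelihood test gave a Benjamini-Hochberg adjusted p below 0.05 and the fold change was at least 2. By this rule 0 of the 9 were called in either direction, where 2.89% of all genes were called higher and 0.872% lower in the footpad. At an unadjusted p below 0.05, 6 of the 9 were higher, against 14.8% of all genes. DESeq2 called 1 of 9 higher (Csf3r) and 0 lower, with 6.71% and 2.05% of all genes called. Without footpad replicate 2, edgeR called 4 of 9 higher (S100a8, S100a9, Csf3r and Retnlg) and 0 lower, with 3.62% and 1.12% of all genes called. Leaving out any other single tumor called 0 of the 9. Without footpad replicate 1 their edgeR adjusted p lay between 0.349 and 0.938. The median log2 fold change was 3.36 over the 9 genes and -0.0042 over all genes tested. The 9 genes were selected with earlier results of these tumors known, and their shared direction is a description.

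S100a8 and S100a9 encode calcium-binding proteins that pair as calprotectin, a major part of the neutrophil cytosol that sequesters metal ions and acts as an alarm signal. S100a8 measured 90.9, 2.11 and 44.3 CPM in footpad against 6.31, 9.97 and 1.25 CPM in flank tumors, with means of 45.8 ± 44.4 and 5.84 ± 4.38 CPM (SD, n = 3 each). The footpad SD nearly equaled the mean, replicate 2 being below 2 of the 3 flank tumors. S100a9 measured 168, 2.54 and 86.4 CPM in footpad against 9.45, 13.1 and 2.46 CPM in flank tumors, in the same order over the 6 tumors as S100a8. The fitted difference was 2.97 for S100a8 and 3.36 for S100a9 on the log2 scale, with standard errors of 1.19 and 1.23 and edgeR adjusted p of 0.174 and 0.146. Leaving out footpad replicate 2 gave 3.53 and 3.93, with edgeR adjusted p of 0.0463 and 0.0278. Leaving out footpad replicate 1 instead gave 1.99 and 2.41, with edgeR adjusted p of 0.443 and 0.373. Both genes lie on chromosome 3 of GRCm38, S100a8 from 90669071 to 90670034 and S100a9 from 90692630 to 90695721.

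The proportion of the pair was not constant. Among reads on both genes, S100a8 made up 35.1% (34.3 to 36.0), 45.5% (39.9 to 51.1) and 33.9% (32.7 to 35.1) in the footpad tumors, where parentheses give the exact 95% binomial interval, which covers counting error only. In the flank tumors it made up 40.0% (36.8 to 43.3), 43.2% (40.5 to 45.8) and 33.6% (27.6 to 40.1). Footpad replicates 1 and 3, the tumors richest in neutrophil RNA, had lower shares than footpad replicate 2 and flank replicates 1 and 2 beyond counting error, and flank replicate 3 could not be told from them at its depth of 232 reads.

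The promoters of this neighboring pair are shown because both genes ranked the 6 tumors alike. Each is the 250 bases before the RefSeq start on GRCm38.p6, 5′ to 3′ on the strand of the gene, and capitals mark matches on either strand to TTGCNNAA (the C/EBP motif, with N for any base), to GAGGAA (the core of the PU.1 motif) or to TATAAA (the TATA box). S100a8 lies on the plus strand (chr3:90668821-90669070) and S100a9 on the minus strand (chr3:90695722-90695971).
S100a8: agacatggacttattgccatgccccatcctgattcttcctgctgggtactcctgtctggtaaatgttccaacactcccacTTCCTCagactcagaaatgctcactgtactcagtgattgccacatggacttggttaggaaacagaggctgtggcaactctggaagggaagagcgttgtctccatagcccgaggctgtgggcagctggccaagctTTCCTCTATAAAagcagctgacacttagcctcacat
S100a9: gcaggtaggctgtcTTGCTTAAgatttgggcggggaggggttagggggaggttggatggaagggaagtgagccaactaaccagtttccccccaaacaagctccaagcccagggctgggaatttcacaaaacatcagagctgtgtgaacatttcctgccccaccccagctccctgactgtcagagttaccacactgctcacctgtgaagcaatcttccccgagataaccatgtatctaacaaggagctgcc
S100a8 had a TATAAA from 30 to 25 bases before its start, directly after a PU.1 core at 36 to 31 and with no overlap, and a further PU.1 core at 170 to 165. S100a9 had a C/EBP match at 236 to 229 and no match to the other letters in this window.

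Receptors of neutrophils formed the next group. Csf3r, the receptor for G-CSF, reached 28.2, 1.21 and 10.9 CPM in footpad against 1.19, 2.60 and 0.383 CPM in flank tumors (log2 fold change 3.27 ± 1.09, edgeR adjusted p = 0.119, where ± is the standard error). This was the smallest edgeR adjusted p of the 9 genes, DESeq2 gave 0.0485, and the alternatives ranged from 0.0399 to 0.349. Cxcr2, the receptor for CXCL1, CXCL2 and their relatives, reached 15.8, 0.379 and 7.17 CPM in footpad against 0.845, 1.27 and 0.0799 CPM in flank tumors, the last being 5 reads (log2 fold change 3.41 ± 1.29, edgeR adjusted p = 0.155). Leaving out footpad replicate 2 gave 3.98 (edgeR adjusted p = 0.0511). Trem1, which amplifies inflammatory signaling through the adaptor DAP12 (Tyrobp), reached 12.3, 0.248 and 5.14 CPM in footpad against 0.310, 0.872 and 0 CPM in flank tumors (log2 fold change 3.89 ± 1.53, edgeR adjusted p = 0.166). Without footpad replicate 2 it was 4.46 (edgeR adjusted p = 0.0699). For all 3 receptors the footpad tumors ran from the highest level of the series to one inside the flank range. On GRCm38, Csf3r lies on chromosome 4 (126023441 to 126044975), Cxcr2 on chromosome 1 (74153994 to 74161246) and Trem1 on chromosome 17 (48232713 to 48246927).

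Among the secreted proteins, Retnlg, a resistin-like protein of mature neutrophils, had the largest fitted difference of the 9 genes. It reached 30.1, 0.0438 and 14.4 CPM in footpad against 0.966, 1.16 and 0.0479 CPM in flank tumors. Footpad replicate 2 and flank replicate 3 had 3 reads each, the limit of detection, while footpad replicates 1 and 3 had 1339 and 705. The log2 fold change was 4.35 ± 1.71 (edgeR adjusted p = 0.166), and 4.94 when footpad replicate 2 was left out (edgeR adjusted p = 0.0367). Retnlg is on chromosome 16 (48872608 to 48874498).

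Lcn2 encodes lipocalin 2, which binds bacterial siderophores, is stored in specific granules and is also made by stressed epithelia and macrophages. Its level was 12.4, 0.423 and 5.17 CPM in footpad against 4.19, 2.58 and 0.144 CPM in flank tumors. Flank replicate 1 lay close to footpad replicate 3. The log2 fold change was 1.38 ± 1.24, the smallest of the 9 (edgeR adjusted p = 0.524). It came to 1.93 without footpad replicate 2 (edgeR adjusted p = 0.282), and ranged from 0.27 without footpad replicate 1 to 2.13 without flank replicate 1. Lcn2 is on chromosome 2 (32384637 to 32387739).

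**Figure D2:**
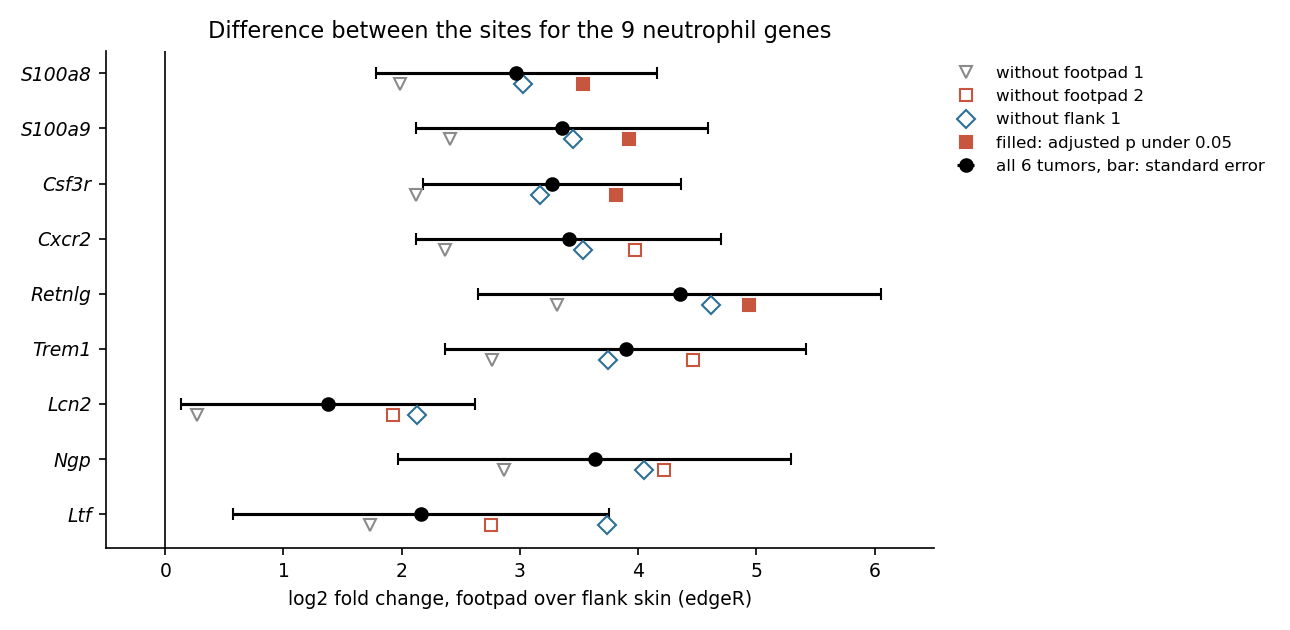
Log2 fold change of footpad over flank skin tumors for each of the 9 genes (edgeR), with black points and standard errors for all 6 tumors and colored symbols for fits without footpad replicate 1, footpad replicate 2 or flank replicate 1. Filled colored symbols mark an adjusted p below 0.05 and appear for S100a8, S100a9, Csf3r and Retnlg without footpad replicate 2.

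Ngp and Ltf, the granule genes of immature cells, had at most 151 reads in any tumor. Ngp, a cathelicidin-related protein of specific granules, had 151, 0 and 108 reads in footpad against 13, 13 and 0 reads in flank tumors, or 3.39, 0 and 2.20 CPM and 0.224, 0.222 and 0 CPM. Ltf, the iron-binding lactoferrin, had 63, 0 and 68 reads in footpad against 28, 8 and 0 reads in flank tumors, or 1.41, 0 and 1.39 CPM and 0.483, 0.137 and 0 CPM. Both genes were at 0 reads in footpad replicate 2 and in flank replicate 3, which were also the lowest tumor of their site for each of the mature genes. The log2 fold change was 3.63 ± 1.66 for Ngp (edgeR adjusted p = 0.22) and 2.16 ± 1.59 for Ltf (edgeR adjusted p = 0.429). Without footpad replicate 2 the values were 4.22 (edgeR adjusted p = 0.0569) and 2.75 (edgeR adjusted p = 0.191). Ltf came to 3.73 without flank replicate 1 and to 1.57 without flank replicate 3. Neither was called by DESeq2 or in any fit that left out a tumor. Ngp lies on chromosome 9 (110419808 to 110423012) and Ltf on chromosome 9 (111019292 to 111042766).

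Promoters of the granule pair are printed to set them beside those of the alarmin pair, with the same 250-base windows of GRCm38.p6 and the same capitals, both on the plus strand (Ngp at chr9:110419558-110419807 and Ltf at chr9:111019042-111019291).
Ngp: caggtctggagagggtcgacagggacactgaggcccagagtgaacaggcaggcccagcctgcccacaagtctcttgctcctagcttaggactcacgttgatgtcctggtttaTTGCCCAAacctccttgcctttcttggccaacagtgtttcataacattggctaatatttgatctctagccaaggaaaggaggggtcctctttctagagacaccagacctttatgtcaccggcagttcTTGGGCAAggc
Ltf: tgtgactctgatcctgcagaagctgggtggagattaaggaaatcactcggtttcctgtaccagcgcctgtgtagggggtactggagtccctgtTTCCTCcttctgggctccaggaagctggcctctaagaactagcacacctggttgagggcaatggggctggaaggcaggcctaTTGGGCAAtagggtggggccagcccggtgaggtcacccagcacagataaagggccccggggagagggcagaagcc
Ngp held 2 C/EBP matches, at 138 to 131 and at 11 to 4 bases before its start, and Ltf held 1 at 75 to 68 with a PU.1 core at 157 to 152. Over the 9 genes, 5 windows had a C/EBP match (S100a9, Retnlg, Lcn2, Ngp and Ltf), against 9.56% of the 32851 promoter windows of the same length. A PU.1 core was found in 6 (S100a8, Csf3r, Cxcr2, Trem1, Lcn2 and Ltf), against 23.3% of windows, and TATAAA in S100a8 alone of the 9, against 12.4%. The window of Csf3r (chr4:126024409-126024658) lies inside the gene span given above, and that of Trem1 (chr17:48232489-48232738) overlaps its span. A match says only that the letters are present.

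Mature and granule genes were compared within each library, where scaling between libraries plays no part. Granule reads were a small share in every tumor, and the sites overlapped. Of the reads on Ngp, Ltf and the 6 mature genes S100a8, S100a9, Csf3r, Cxcr2, Retnlg and Trem1, Ngp and Ltf took 1.37% (1.20 to 1.57) in footpad replicate 1 and 2.09% (1.79 to 2.42) in footpad replicate 3. In footpad replicate 2 they took 0 of 448 reads, which allows a share of up to 0.670% by 3 counts and 0.820% by the exact interval. Flank replicates 1 and 2 had 3.57% (2.58 to 4.82) and 1.22% (0.759 to 1.86), and flank replicate 3 had 0 of 264 reads, which allows up to 1.14% and 1.39% in the same way. Flank replicate 1 thus had the highest share, and the values of the other flank tumors lay below those of footpad replicates 1 and 3. By their intervals, however, both overlapped footpad replicate 1, and flank replicate 2 also overlapped footpad replicate 3. Of the 448 reads of footpad replicate 2, 319 were on S100a8 and S100a9, which stressed keratinocytes can also express. The cell source of these reads was not tested.

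As a difference of mean log2 CPM (Ngp and Ltf minus the 6 mature genes), the gap was -4.06, -5.07 and -3.25 in footpad and -2.25, -3.85 and -3.70 in flank tumors. The site means were -4.13 ± 0.915 and -3.27 ± 0.887 (SD, n = 3 each), so that they differed by -0.86, less than the SD of either site. Leaving out a tumor moved the difference between -0.35 (without flank replicate 1) and -1.30 (without footpad replicate 3, larger than those SDs), and it was -0.39 without footpad replicate 2. In the tumors with 0 reads on both granule genes the gap depends on the prior count of 1 read.

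The higher granule share of flank replicate 1 lay in Ltf rather than in Ngp, and Lcn2 was high there too. Set against the 6 mature genes, Ltf took 2.47% (1.65 to 3.55) of the reads in flank replicate 1, against 0.408% (0.314 to 0.522) and 0.818% (0.636 to 1.04) in replicates 1 and 3 of the footpad and 0.469% (0.203 to 0.923) in flank replicate 2. For Ngp the share was 1.16% (0.620 to 1.98) in flank replicate 1, which overlapped 0.973% (0.825 to 1.14), 1.29% (1.06 to 1.56) and 0.761% (0.406 to 1.30) in the same 3 tumors. Lcn2 took 18.0% (15.997 to 20.2) in flank replicate 1, against 3.47% (3.19 to 3.76), 6.08% (4.11 to 8.61) and 2.98% (2.63 to 3.36) in the footpad and 8.18% (6.97 to 9.52) and 3.30% (1.52 to 6.17) in flank replicates 2 and 3. The intervals separate flank replicate 1 from the other 5 tumors for Lcn2 and Ltf, as libraries and not as conditions.

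Composition also varied among the mature genes. Retnlg made up 8.71% (8.27 to 9.17) and 8.55% (7.95 to 9.17) of the reads on the 6 mature genes in replicates 1 and 3 of the footpad. Its share was 5.06% (3.85 to 6.53) and 4.01% (3.13 to 5.06) in replicates 1 and 2 of the flank. In the tumors with the fewest reads it was lower still, 0.670% (0.138 to 1.94) in footpad replicate 2 and 1.14% (0.235 to 3.28) in flank replicate 3. Csf3r ran the other way in footpad replicate 2, where it made up 18.5% (15.0 to 22.4), against 6.24% to 9.09% in the other 5 tumors. Csf3r is also expressed by monocytes and macrophages, whose markers summed to 130 CPM there (118 and 135 CPM in replicates 1 and 3), and their part in this share was not tested. Cxcr2 was close to even, from 4.26% to 5.80%, in every tumor but flank replicate 3, where it was 1.89% (0.618 to 4.36).

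**Figure D3:**
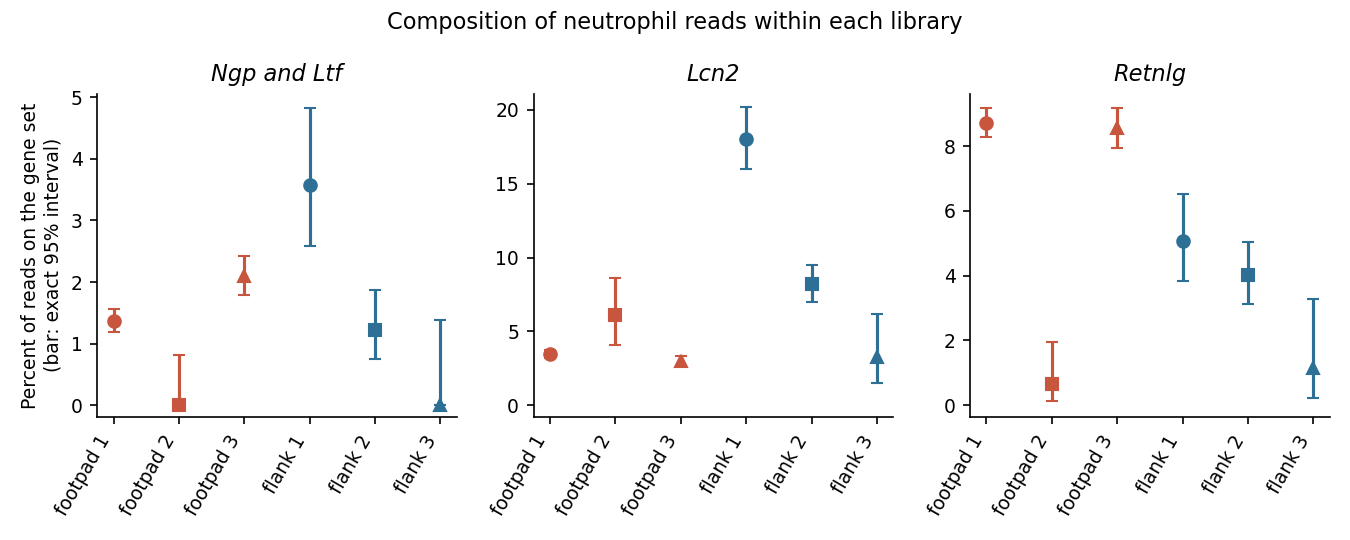
Percent of reads within each library, with exact 95% binomial intervals, for Ngp and Ltf among the 8 mature and granule genes (left), Lcn2 among Lcn2 and the 6 mature genes (middle) and Retnlg among the 6 mature genes (right), in footpad (red) and flank skin (blue) tumors. Ngp with Ltf and Lcn2 peak in flank replicate 1, and Retnlg is highest in footpad replicates 1 and 3.

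Per transcript length, as FPKM values of the authors, S100a9 and S100a8 held the top 2 ranks of the 9 genes in 6 of 6 tumors. S100a9 ranked above S100a8 in 4 tumors, with levels of 263 against 190 FPKM in footpad replicate 1 and 150 against 103 FPKM in footpad replicate 3. S100a8 ranked first in footpad replicate 2 (5.05 against 4.53 FPKM) and in flank replicate 2 (24.6 against 24.3 FPKM), and these neighbors differed by far less than tumors of a site did. Retnlg had rank 3 in footpad replicates 1 and 3, at 40.5 and 21.5 FPKM, and Lcn2 had it in the other 4 tumors. Ltf had the lowest FPKM in flank replicate 2 and in replicates 1 and 3 of the footpad (0.421 and 0.458), and Trem1 had it in flank replicate 1. The alarmin pair accounted for 82.1% to 96.1% of the summed FPKM of the 9 genes.

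Tumors of a site differed widely in these genes. Highest over lowest footpad tumor was 43.0-fold for S100a8, 66.1-fold for S100a9, 23.3-fold for Csf3r, 41.8-fold for Cxcr2, 49.4-fold for Trem1 and 29.3-fold for Lcn2. The median SD of log2 CPM among the footpad tumors was 2.90 over the 9 genes and 0.248 over all genes tested, and 0.825% of genes had a larger SD than the median of the 9. Among flank tumors the medians were 2.18 and 0.289. The footpad tumors rich in neutrophil RNA also differed from each other: replicate 1 stood between 1.94-fold (S100a9) and 2.57-fold (Csf3r) above replicate 3 for the 7 genes other than Ngp and Ltf, but 1.54-fold for Ngp and 1.02-fold for Ltf.

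Other genes of the neutrophil program were taken from lists written from general knowledge. Of 12 further genes of mature neutrophils, 11 were tested, with 0 called by edgeR and 9 called higher by DESeq2 (6.71% of all genes). At an unadjusted p below 0.05 in edgeR's test, 11 of 11 were higher, against 14.8% of all genes. Their median log2 fold change was 3.41, and edgeR called 8 of them higher when footpad replicate 2 was left out (3.62% of all genes). Il1r2, the decoy receptor for interleukin-1, measured 21.9, 1.14 and 8.90 CPM in footpad against 0.328, 0.941 and 0.128 CPM in flank tumors (log2 fold change 4.51 ± 1.13, edgeR adjusted p = 0.0629, DESeq2 adjusted p = 0.00321). Il1r2, Mmp25 and Wfdc21 were the genes of this list without overlap between the sites, 3 of 11 where 17.5% of all genes tested had none. Wfdc21, a secreted protein of the whey acidic protein family, came closest to the threshold (log2 fold change 3.19 ± 0.72, edgeR adjusted p = 0.0504, DESeq2 adjusted p = 0.000338). Stfa2l1, also in the list, has near-identical stefin copies, and its reads are uncertain.

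Of the other granule genes, those made earliest in maturation were at or near 0. Of the 5 azurophil (primary granule) genes, Mpo, Elane, Ctsg and Ms4a3 had 0 reads in 6 of 6 tumors, each of which allows a level up to that of 3 reads, and Prtn3 had 0 to 12 reads. Camp, the cathelicidin of specific granules, had 3 reads in footpad replicate 3, 7 in flank replicate 1 and 0 elsewhere. Of the list of 7 further specific and gelatinase granule genes, 5 were tested and 0 called by edgeR. The median log2 fold change of the 5 was 1.33. At an unadjusted p below 0.05 in edgeR's test 2 were higher (Mmp8 and Mmp9), against 14.8% of all genes. Mmp9, gelatinase B, measured 31.0, 0.583 and 12.3 CPM in footpad against 0.448, 2.02 and 0.543 CPM in flank tumors (log2 fold change 3.86 ± 1.25, edgeR adjusted p = 0.112). It was called by DESeq2 (adjusted p = 0.0313) and by edgeR without footpad replicate 2 (adjusted p = 0.0277). Mmp8, the neutrophil collagenase, measured 8.01, 0.321 and 3.82 CPM in footpad against 0.379, 0.650 and 0 CPM in flank tumors (log2 fold change 3.55 ± 1.38, edgeR adjusted p = 0.164). Pglyrp1, a bactericidal granule protein, was at 0.808, 0.0875 and 0.633 CPM and 0.414, 0.188 and 0 CPM in these groups. Hp differed less, at 17.0, 1.78 and 8.80 CPM in footpad against 3.28, 14.6 and 1.37 CPM in flank tumors. Its log2 fold change was 0.52 ± 0.97 (edgeR adjusted p = 0.773), and that of Padi4 was 0.59 ± 0.47 (edgeR adjusted p = 0.467).

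**Figure D4:**
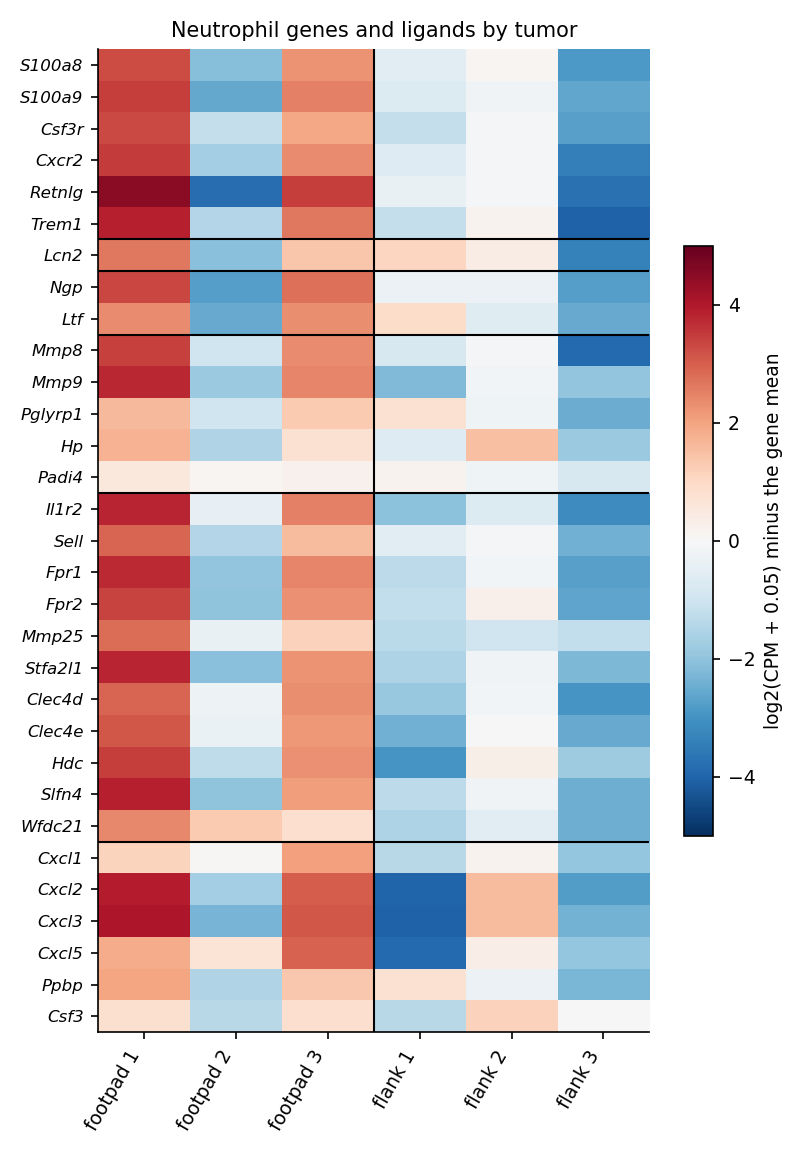
Log2(CPM + 0.05) minus the mean of each gene for tested neutrophil genes and chemokine ligands (rows, grouped from top to bottom as mature genes, Lcn2, Ngp and Ltf, other specific and gelatinase granule genes, other mature genes, and ligands with Csf3) in the 6 tumors (columns). Footpad replicates 1 and 3 are above the gene mean in every row, and flank replicate 3 is below it in nearly all.

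Ligands that call neutrophils were read beside their receptors. Of 6 genes (Cxcl1, Cxcl2, Cxcl3, Cxcl5, Ppbp and Csf3) 6 were tested and 0 called by edgeR. At an unadjusted p below 0.05 in edgeR's test 2 were higher, against 14.8% of all genes. DESeq2 called Cxcl1 and Cxcl5 higher (6.71% of all genes). The median log2 fold change of the 6 genes was 2.52. Cxcl3, a CXCR2 ligand, measured 13.6, 0.117 and 7.08 CPM in footpad against 0, 2.43 and 0.112 CPM in flank tumors (log2 fold change 3.03 ± 1.79, edgeR adjusted p = 0.333). Cxcl5, another CXCR2 ligand, measured 2.60, 1.15 and 5.70 CPM in footpad against 0, 0.890 and 0.144 CPM in flank tumors (log2 fold change 3.19 ± 1.24, edgeR adjusted p = 0.165, DESeq2 adjusted p = 0.0292). It was the 1 gene of the 6 without overlap between the sites, where 17.5% of all genes tested had none. Cxcl2, the ligand with the highest level, overlapped. It measured 37.7, 0.715 and 20.05 CPM in footpad against 0.103, 7.39 and 0.304 CPM in flank tumors (log2 fold change 2.90 ± 1.64, edgeR adjusted p = 0.309). Csf3, which encodes G-CSF, had 8, 0 and 9 reads in footpad against 0, 14 and 5 reads in flank tumors. Flank replicate 1 had 0 reads on Cxcl3, Cxcl5 and Csf3, 6 reads on Cxcl2 and 23 on Cxcl1. The part of the ligands in the neutrophil levels was not tested. Ppbp, a platelet chemokine that gives rise to a CXCR2 ligand, was at 4.24, 0.335 and 2.72 CPM in footpad and 1.83, 0.838 and 0.176 CPM in flank tumors.

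Of 6 partners and receptors 5 were tested, and 0 were called by edgeR. Tyrobp, the adaptor of TREM1, was the 1 gene of this list with an unadjusted p below 0.05, at 18.9, 6.42 and 12.3 CPM in footpad against 1.52, 5.13 and 2.62 CPM in flank tumors (log2 fold change 2.02 ± 0.54, edgeR adjusted p = 0.0713, DESeq2 adjusted p = 0.00106). Tlr4, a receptor for calprotectin, was at 91.4, 88.5 and 99.1 CPM and 124, 89.2 and 114 CPM (log2 fold change -0.23 ± 0.15, edgeR adjusted p = 0.391). Cxcr1 had 7 reads in flank replicate 1 and 0 in the other 5 tumors. Of 6 myeloid transcription factors 4 were tested, with 0 called by edgeR and 4 called higher by DESeq2 (6.71% of all genes). Every footpad tumor was above every flank tumor for 4 of 4, against 17.5% of all genes. Spi1, which encodes PU.1, measured 8.04, 1.68 and 4.10 CPM in footpad against 0.397, 1.47 and 0.368 CPM in flank tumors (log2 fold change 2.62 ± 0.75, edgeR adjusted p = 0.0848). Cebpa measured 3.10, 7.60 and 2.74 CPM in footpad, with its highest level in the footpad tumor poorest in neutrophil genes, against 0.466, 1.47 and 0.623 CPM in flank tumors (log2 fold change 2.39 ± 0.59, edgeR adjusted p = 0.0610). Cebpe and Gfi1, factors of granulocyte precursors, had at most 14 reads in any tumor.

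Markers of other cells followed the neutrophil genes to different degrees or not at all, and their part in the neutrophil levels was not tested. The 5 erythroid genes (hemoglobins and Alas2) summed to 36260, 3952 and 17773 CPM in footpad and 30913, 3547 and 1925 CPM in flank tumors, with 0 of 5 called. Footpad replicates 1 and 3 were thus high in both sets, while flank replicate 1 was high in erythroid genes with a neutrophil sum of 24.0 CPM. Platelet genes summed to 20.02, 11.9 and 16.7 CPM against 13.7, 10.5 and 2.28 CPM, with 0 of 3 tested genes called. The 3 pan-leukocyte genes (Ptprc, Laptm5 and Coro1a) summed to 84.9, 21.3 and 53.2 CPM against 5.95, 20.5 and 9.17 CPM. Of these, 0 were called by edgeR, and 2 were called higher when footpad replicate 2 was left out (3.62% of all genes).

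Macrophage and monocyte markers were mixed in footpad replicate 2, with 4 of 9 at their highest level of the series there and 3 of 9 at their lowest footpad level. The 9 markers summed to 118, 130 and 135 CPM in footpad and 24.96, 109 and 60.3 CPM in flank tumors. Ccr2, a receptor of inflammatory monocytes, measured 21.3, 7.12 and 17.7 CPM in footpad tumors, and C1qa, a complement gene of tissue macrophages, 11.7, 26.3 and 17.5 CPM. Of the 9 markers, edgeR called 1 higher and DESeq2 called 2, against 2.89% and 6.71% of all genes. At an unadjusted p below 0.05 in edgeR's test 2 were higher, against 14.8% of all genes. Every footpad tumor was above every flank tumor for 4 of 9, against 17.5% of all genes. Cd68, a lysosomal protein of macrophages, was the gene edgeR called (log2 fold change 1.51 ± 0.32, edgeR adjusted p = 0.0429). Its adjusted p was above 0.05 in 5 of the 6 edgeR fits that left out a tumor (0.0559 to 0.148), the exception being that without footpad replicate 2 (0.0335). Eosinophil, basophil and mast cell genes were at or near 0: Prg2 and Ear6 had 0 reads in 6 of 6 tumors, and the 6 genes summed to at most 0.629 CPM. Keratinocyte genes were highest in footpad replicate 2 for 10 of 10 markers, with 0 of 8 tested genes called. Stressed keratinocytes can also express S100a8, S100a9 and Lcn2, and their part in the levels of these genes was not tested. The 5 melanocyte genes summed to 9156, 16699 and 11738 CPM in footpad and 24047, 13311 and 15414 CPM in flank tumors, with 0 called. At an unadjusted p below 0.05 in edgeR's test there were 0 erythroid, 1 platelet, 3 pan-leukocyte, 5 keratinocyte and 1 melanocyte genes, and DESeq2 called 0, 1, 2, 2 and 0 of these lists. Over all genes tested, 25.3% had an unadjusted p below 0.05 in edgeR's test, and DESeq2 called 6.71% higher and 2.05% lower.

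**Figure D5:**
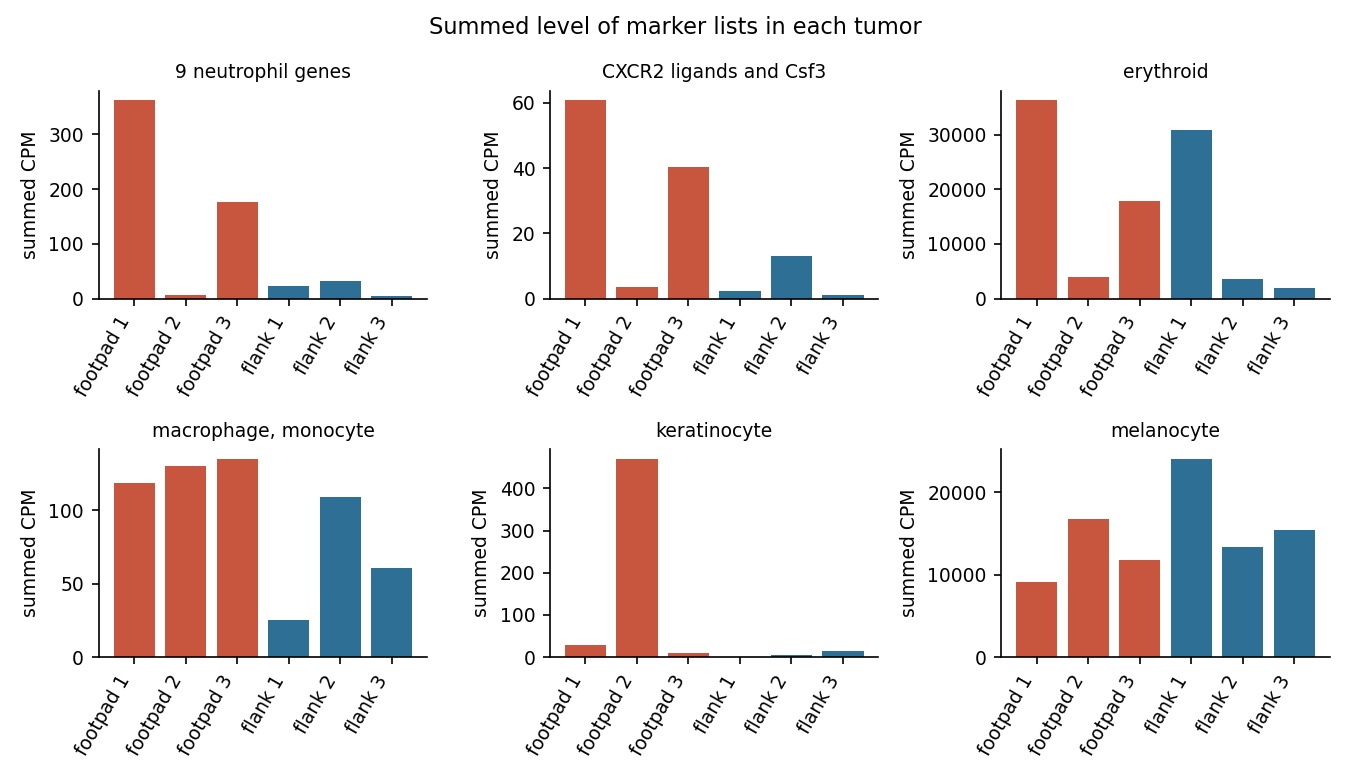
Summed CPM of 6 marker lists in the 3 footpad tumors (red) and the 3 flank skin tumors (blue), each panel with its own axis from 0. The 9 neutrophil genes reach 362 CPM (footpad replicate 1) and 177 CPM (footpad replicate 3), and 32.0 CPM or less elsewhere, the erythroid genes are also high in flank replicate 1, and the keratinocyte genes stand out in footpad replicate 2.

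Genes with the most similar pattern were sought over all 17210 genes tested, by the root-mean-square difference between log2 CPM profiles over the 6 tumors, each centered on its mean, from the mean profile of the 9 genes. The 10 nearest were Siglece, Cd177, Fpr1, Gm1966, Fpr2, Olfm4, Nfe2, Cstdc4, Slfn4 and Stfa2l1, with differences from 0.40 to 0.77. Of these, 4 were in the list of mature neutrophil genes (Fpr1, Fpr2, Slfn4 and Stfa2l1). Cd177, a neutrophil surface protein, measured 9.34, 0.219 and 4.47 CPM in footpad against 0.362, 0.684 and 0.0479 CPM in flank tumors. Olfm4, a specific granule protein, measured 6.60, 0.102 and 2.69 CPM in footpad against 0.207, 0.359 and 0 CPM in flank tumors. Of the 9 genes themselves, Cxcr2 (0.37), S100a8 (0.40) and S100a9 (0.46) lay closest to their common profile, and Trem1 (0.96) and Retnlg (0.98) farthest. Each of the 9 is itself part of that mean, and Trem1 and Retnlg had 0 and 3 reads in flank replicate 3. The edgeR adjusted p of the 10 lay between 0.122 and 0.286. Gm1966, Cstdc4 and Stfa2l1 have close copies, and their reads are uncertain.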

How the data were processed

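RNA of 3 footpad and 3 flank skin tumors was compared, 1 library each, grouped by the labels. The authors used FastQC 0.11.7, Trimmomatic and HISAT2 2.1.0 with the mm10 genome, per the submitters' processing notes. The deposited table holds raw counts, whole reads per gene, and beside them the FPKM that the authors computed. The counting program and its use of strand are not given in the sources used here.

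The main test was edgeR 4.0.16 under R 4.3.3 (TMM, filterByExpr defaults, glmQLFit and glmQLFTest, Benjamini-Hochberg over 17210 genes). A call needed an adjusted p below 0.05 and at least a 2-fold difference. The standard error is the log2 fold change over the square root of F. Alternatives were DESeq2 1.42.0, no low-count filter, upper-quartile scaling, limma 3.58.1 on log2(FPKM + 1) and log2(FPKM + 0.1), the replicate number as a block, and each tumor left out. Counting overlap with each tumor left out was chosen after seeing the data. The fits were tested on simulated data. Depth was 46529649 to 66364366 reads per tumor, and the common biological coefficient of variation was 0.338. Promoters and coordinates came from RefSeq on GRCm38.p6 (the assembly of mm10), with an entry for 9 of 9 genes. Further tables and plots used Python 3.11.15 (scipy 1.17.1, pandas 2.3.3, numpy 2.4.6, matplotlib 3.10.9).

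The 9 genes and the lists were chosen with earlier results of these data known. Genes named are the 9, the other genes among the 93 of the lists, and the 10 tested genes nearest in profile.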

Additional observations from a re-analysis of the deposited data

How the results depend on the processing

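The fitted direction of the 9 neutrophil genes, footpad above flank skin, held in 108 of 108 values (9 genes under 12 alternatives), and 103 stayed on the same side of the threshold. Of the 9, 0 were called with all tumors, 1 with DESeq2, and from 0 to 4 when a tumor was left out (4 without footpad replicate 2). Over all genes, 2.89% were called higher with all tumors, 6.71% with DESeq2 and 3.62% without footpad replicate 2. The number of the 9 without overlap between the sites was 0, and from 0 to 9 when a tumor was left out (9 without footpad replicate 2, 1 without flank replicate 2). Of all genes tested, 17.5% had every footpad tumor above every flank tumor, and 25.1% did so without footpad replicate 2. For the other tumors left out this share was not computed. The granule-minus-mature gap moved by less than the SD of a site under every alternative run (-0.35 to -1.30). Over all genes 497 were called higher and 150 lower, against 1154 and 352 with DESeq2, 271 and 95 with limma on log2(FPKM + 1), and from 0 to 639 higher and from 0 to 197 lower when a tumor was left out. The counts of 0 came without footpad replicate 3, where 3289 genes had an unadjusted p below 0.05 in edgeR's test. With the replicate number as a block, edgeR called 0 genes in either direction (3551 at an unadjusted p below 0.05), and the adjusted p of the 9 genes lay between 0.306 and 0.687. Same-numbered tumors did not deviate together (correlations of 0.0544, -0.0965 and -0.115). These correlations cannot show whether tumors shared a mouse, because the labels do not give which tumors would form a pair. The main test used no pairing. The cause of these shifts was not tested. Counting precision is low for Ngp, Ltf, Retnlg and Trem1 in footpad replicate 2 (0 to 17 reads) and for these, Cxcr2 and Lcn2 in flank replicate 3 (0 to 9 reads), although these libraries were the 2 deepest.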
